A study of Mus musculus with 15 samples.

Results

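Of 11241 regions with an H3K4me3 peak in untreated wild-type (WT) brown adipocytes, 364 were missing from another list (3.24%, 95% interval 2.93 to 3.58). Each lacked a peak in the CLPP-KO list, the WT + 2HG list or both. These are called the treated lists here for short, although the CLPP-KO cells were untreated knockout cells. Peaks of 3 lists, 1 for each condition, were merged wherever they overlapped by at least 1 bp. This gave 15110 regions on chromosomes 1 to 19. Members were thus chosen by the presence or absence of called peaks, and no other value entered. A member holds a WT peak and no CLPP-KO peak, no WT + 2HG peak, or neither. Altogether 237 WT regions were missing from the CLPP-KO list, which is the background share of 2.11%, and 282 were missing from the WT + 2HG list, a background share of 2.51%. The members fell into 3 groups. There were 155 missing from both lists (1.38%, 1.18 to 1.61), 82 missing from CLPP-KO only (0.729%, 0.588 to 0.904) and 127 missing from WT + 2HG only (1.13%, 0.95 to 1.34). The other 10877 WT regions (96.8%) had a peak in all 3 lists. Intervals are Wilson intervals over regions. They cover counting error only and do not measure the spread between cultures.

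H3K4me3 ChIP–seq was made from 12 mouse samples, with 4 replicates for each of the conditions, and 3 inputs were sequenced. The cells, named mBA, were brown preadipocytes differentiated to mature brown adipocytes. The sample labels call them primary, whereas the methods describe preadipocytes taken from the brown fat of newborn mice and immortalised with SV40 large T antigen under a PGK promoter, so all groups carry that transgene. WT cells were untreated. WT + 2HG cells received 500 µM octyl d-2-hydroxyglutarate, a cell-permeable form of the metabolite, in DMSO for 72 h, renewed every 24 h. CLPP-KO cells were labelled untreated and came from mice lacking CLPP, a protease of the mitochondrial matrix, in every tissue. Per the labels their medium held uridine. Genotype and uridine cannot be told apart, and neither can 2HG and DMSO where the WT cells had no vehicle. Per the study's reporting summary, the line was made from control and knockout animals pooled within each sex, and a replicate is a separate culture, so the 4 samples of a group are cultures of pooled origin.

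Each condition had 1 list, called by the authors on its 4 samples together, so no difference between conditions could be tested and no member is known to differ in H3K4me3 level. Absence from a list means that no peak is listed there. The stated calling limits were a q of 0.05 and an area of 20, but every deposited list starts at an area just above 200, so a peak with an area between these values would also appear as absent. On chromosomes 1 to 19 the WT list was the shortest, with 11988 peaks. WT + 2HG had 13668 and CLPP-KO 14461. Median peak areas were 3053, 5124 and 5969. The lists hold no read counts, so the depth behind a peak is unknown. Clpp itself had a promoter peak in all 3 lists, at the 38.9th, 44.4th and 41.9th percentile of area (order WT, WT + 2HG, CLPP-KO), and a promoter mark does not check a knockout. Of 12 brown adipocyte markers, 3 were marked in WT, whereas each treated list had a promoter peak at 6. Prdm16, Pparg and Cebpa, which direct the brown and general adipocyte programmes, were marked in every list, whereas Ucp1, Fabp4, Adipoq, Ppargc1a and Dio2 were marked in none. Peaks were present at 3 of 4 preadipocyte markers in each list, at 1, 1 and 3 of 4 skeletal muscle markers, at 1 of 3 endothelial markers in each list and at 0 of 3 macrophage markers.

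Trimethylation of lysine 4 on histone H3 is laid down by the SET1 and MLL methyltransferase complexes and marks the start sites of active and poised genes. These complexes are recruited in part by proteins that bind unmethylated CpG dinucleotides, so CpG islands, stretches in which CpG has not been depleted, usually carry broad and strong marks. Start sites without an island, and enhancers, carry less of the mark or mainly the monomethylated form. The demethylases that remove it use 2-oxoglutarate, with which 2-hydroxyglutarate competes.

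The sequences under 5 members are shown because CpG content, which the rule did not use, was a feature in which the groups differed. Each run is 200 bases of GRCm39, plus strand, centred on the WT summit, with every CpG in capitals. They come from regions of large WT area at a coding promoter or outside promoters in each group, taken in order of area. Such regions are examples and do not stand for the CpG content of their groups. In 500 bp at its WT summit, Cpxm2 had an observed to expected CpG ratio of 0.642, against a median of 0.342 in its group. Regions whose run held more than 30 bases of UTR were passed over, the Exosc5 run holds 10, and some larger regions are not shown here. The first pair was missing from both lists, Cpxm2 at chr7:131756112-131756311 with 12 CpG and an intron near Rbm12b1 at chr4:12134755-12134954 with 3. Of the regions missing from CLPP-KO only, the one outside promoters is shown, an intron near Ajuba at chr14:54811872-54812071 with 2. The last pair of members was missing from WT + 2HG only, Exosc5 at chr7:25358651-25358850 with 13 CpG and an intron of Actr3b at chr5:25973903-25974102 with 24. The Actr3b run is made of short near-repeats, with 84 different 8-mers among its 193 positions, whereas the other runs had 183 to 193. Mrpl19, at chr6:81942543-81942742, is the region of median WT area among those in all 3 lists and held 19 CpG.
Cpxm2: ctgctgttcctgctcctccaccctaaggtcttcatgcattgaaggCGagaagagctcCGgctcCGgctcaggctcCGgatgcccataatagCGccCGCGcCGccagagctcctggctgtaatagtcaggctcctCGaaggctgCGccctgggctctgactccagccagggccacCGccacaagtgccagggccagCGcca
Rbm12b1: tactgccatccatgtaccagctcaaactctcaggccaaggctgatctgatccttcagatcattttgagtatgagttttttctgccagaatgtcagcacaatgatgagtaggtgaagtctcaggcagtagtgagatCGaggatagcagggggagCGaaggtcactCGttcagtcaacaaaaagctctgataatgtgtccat
Ajuba: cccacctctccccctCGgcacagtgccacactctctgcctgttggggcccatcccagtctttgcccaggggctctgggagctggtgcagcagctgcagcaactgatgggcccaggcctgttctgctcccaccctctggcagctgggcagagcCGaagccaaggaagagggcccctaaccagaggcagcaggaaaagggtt
Exosc5: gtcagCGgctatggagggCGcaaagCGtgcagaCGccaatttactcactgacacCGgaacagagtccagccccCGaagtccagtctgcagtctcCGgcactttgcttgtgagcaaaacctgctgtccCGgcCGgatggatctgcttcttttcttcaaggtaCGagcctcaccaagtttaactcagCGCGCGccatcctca
Actr3b: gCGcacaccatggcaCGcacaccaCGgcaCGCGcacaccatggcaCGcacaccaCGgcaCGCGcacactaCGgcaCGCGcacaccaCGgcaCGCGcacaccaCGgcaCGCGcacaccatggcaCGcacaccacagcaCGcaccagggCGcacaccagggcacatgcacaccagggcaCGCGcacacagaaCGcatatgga
Mrpl19: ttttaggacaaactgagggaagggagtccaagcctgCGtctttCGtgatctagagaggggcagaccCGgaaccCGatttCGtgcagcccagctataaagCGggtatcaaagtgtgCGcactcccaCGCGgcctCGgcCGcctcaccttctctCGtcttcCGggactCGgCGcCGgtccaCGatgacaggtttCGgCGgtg

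Members were the weak end of the WT list. The peak area, which the caller computes as the significance signal summed along the peak, had a median of 257 (quartiles 225 to 343) in regions missing from both lists, 341 (273 to 470) in those missing from CLPP-KO only and 360 (283 to 491) in those missing from WT + 2HG only, against 3384 (1565 to 5714) in regions of all 3 lists. The smallest area in the WT list was 200.02. Median widths were 417, 452.5 and 439 bp against 866 bp, and median summit −log10 p-values were 3.36, 3.65 and 3.92 against 10.6. These values bear on whether a peak is called at all and are given as a description. When the WT regions were divided by area into 10 equal bins, 296 of the 1125 in the weakest bin were members (26.3%, 23.8 to 29.0), namely 139, 62 and 95 of the 3 groups. In the second bin 63 of 1124 were members (5.60%, 4.41 to 7.11) and in the third 5 of 1124 (0.445%). Above that, 0 of 7868 regions were missing from a list, which allows a share of up to 0.0381%. Since weakness went with membership, features of the members are given below beside the 829 regions of the weakest bin that were in all 3 lists, called weak retained regions here.

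**Figure D1:**
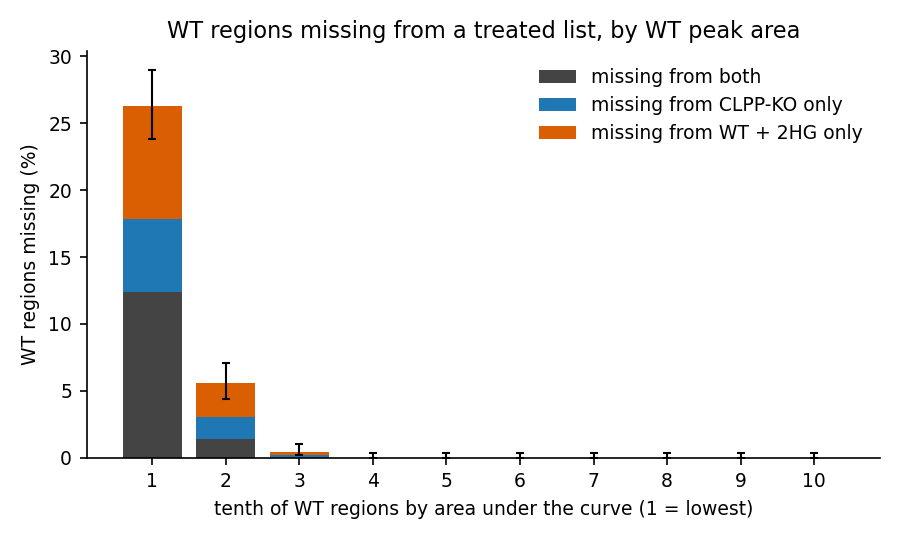
Share of WT regions missing from a treated list (y axis, percent) in each of 10 equal bins of WT peak area (x axis, weakest first); colours stack the 3 groups and bars on each total are 95% Wilson intervals. The share was 26.3% in the first bin, 5.60% in the second, 0.445% in the third and 0 beyond.

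The edge of the rule lay at overlaps of a few bp. The WT region at Nr1d1, a circadian repressor of the nuclear receptor family, overlapped a CLPP-KO peak by 8 bp and so was not missing from that list. A region in an intron of Arhgef17, a guanine nucleotide exchange factor, became a member with a gap of 47 bp to the nearest CLPP-KO peak. In WT + 2HG the corresponding pair was AI854703, with an overlap of 11 bp, and Bcl9l, a coactivator of β-catenin, with a gap of 31 bp. Only 2 members missing from CLPP-KO and 4 missing from WT + 2HG had a gap of 100 bp or less. In 5 WT regions counted as present in CLPP-KO and 4 in WT + 2HG, the strongest WT peak did not itself overlap a peak of that list. Such regions were joined through other peaks.

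By annotation, regions missing from both lists stood apart from the other groups. A coding promoter, here a window of 2000 bp on either side of the start of any protein-coding transcript, was touched by 88 of 155 of them (56.8%, 48.9 to 64.3). The share was 70 of 82 (85.4%, 76.1 to 91.4) for regions missing from CLPP-KO only, 101 of 127 (79.5%, 71.7 to 85.6) for those missing from WT + 2HG only, 83.2% for weak retained regions and 94.6% for all regions in the 3 lists. Promoters of noncoding genes alone accounted for 15 (9.68%), 6 (7.32%) and 14 (11.02%) members, against 10.3% of weak retained regions. Outside every promoter window lay 52 regions missing from both lists (33.5%, 26.6 to 41.3), of which 27 were in introns, 19 between genes and 6 in exons. In the other groups 6 (7.32%, 3.40 to 15.1) and 12 (9.45%, 5.49 to 15.8) lay outside, against 54 of the weak retained regions (6.51%, 5.03 to 8.40) and 173 of all regions in the 3 lists (1.59%). None of the 82 regions missing from CLPP-KO only lay between genes, which allows a share of up to 3.66%. Within the weakest bin of WT area, the share outside promoters among regions missing from both lists was 49 of 139 (35.3%, 27.8 to 43.5), so it was as large there. The bin did not match weakness in full, since the median area was 251 for these regions and 336 for weak retained regions.

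**Figure D2:**
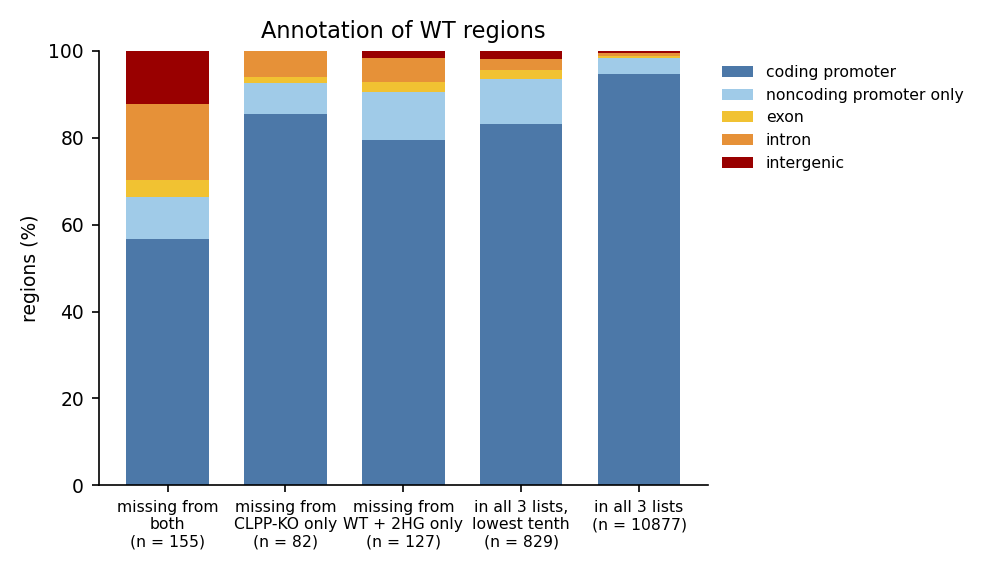
Stacked shares (percent) of regions at a coding promoter, at a noncoding promoter only, or in exons, introns and intergenic sequence, for the 3 groups, weak retained regions and all regions in the 3 lists. Regions missing from both lists had 56.8% at coding promoters, and every other group had 79.5% or more.

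By their medians the members were poorer in CpG than weak retained regions, least so those missing from WT + 2HG only. In the 500 bp around the WT summit the median ratio of observed to expected CpG was 0.342 (quartiles 0.185 to 0.559) in regions missing from both lists, 0.502 (0.328 to 0.654) in those missing from CLPP-KO only and 0.623 (0.467 to 0.738) in those missing from WT + 2HG only. It was 0.704 (0.582 to 0.820) in weak retained regions and 0.798 (0.688 to 0.902) in all regions in the 3 lists. Median GC content followed the same order at 52.2%, 56.5%, 57.4%, 61.2% and 66.0%. A window that had at least 50% GC and a ratio of at least 0.6, used here as an island-like composition, was found in 25 of 155 regions missing from both lists (16.1%, 11.2 to 22.7) and 24 of 82 missing from CLPP-KO only (29.3%, 20.5 to 39.9). It was found in 67 of 127 missing from WT + 2HG only (52.8%, 44.1 to 61.2). In weak retained regions it was found in 598 of 829 (72.1%, 69.0 to 75.1). Differences between these shares were not tested. Low CpG content did not describe the members with strong summits. Of the 29 with a WT summit p of at most 1e-05, 22 had an island-like window.

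The shares were also taken within coding promoters and among the weakest regions. Among coding promoters, island-like windows made up 20 of 88 regions missing from both lists (22.7%, 15.2 to 32.5), 21 of 70 missing from CLPP-KO only (30.0%, 20.5 to 41.5) and 50 of 101 missing from WT + 2HG only (49.5%, 40.0 to 59.1), against 503 of 690 weak retained promoters (72.9%). Among the weakest 5% of WT regions by area the share was 45 of 189 members (23.8%, 18.3 to 30.4) and 270 of 374 retained regions (72.2%, 67.4 to 76.5). Among the 52 regions missing from both lists and outside promoters, 0 were island-like, which allows up to 5.77%. Whether GC recovery differed between the conditions was not tested.

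**Figure D3:**
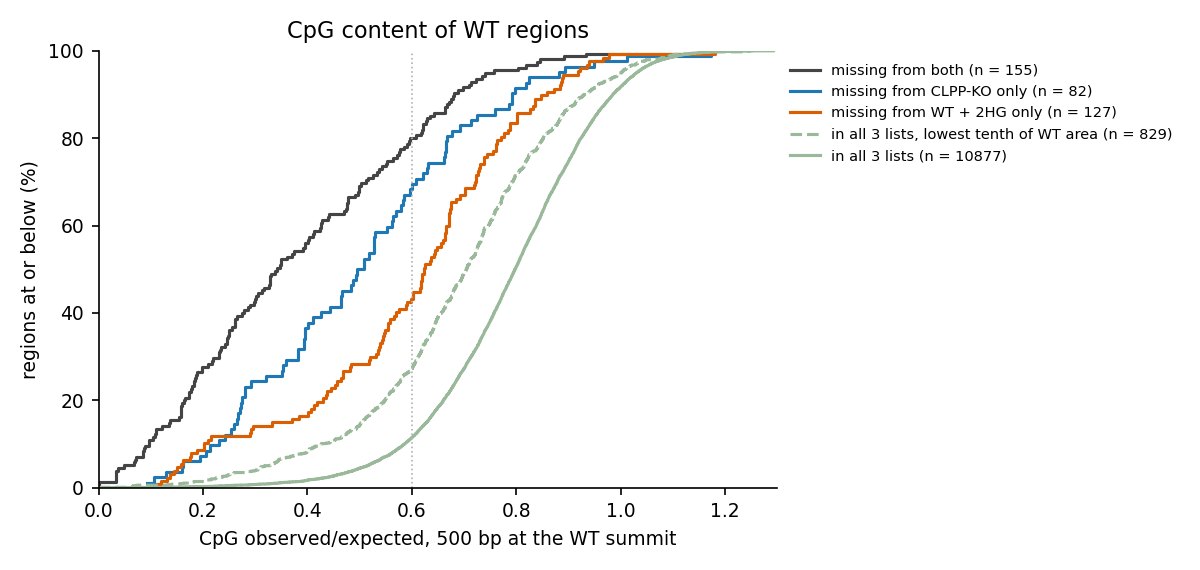
Cumulative share of regions (y axis) against the observed to expected CpG ratio in 500 bp at the WT summit (x axis), with a dotted line at 0.6. Curves run from regions missing from both lists on the left (median 0.342) through those missing from CLPP-KO only (0.502) and from WT + 2HG only (0.623) to weak retained regions (dashed, 0.704) and all regions in the 3 lists (0.798).

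Of 5 short promoter motifs searched on both strands of the same windows, GGGCGG and TATAAA were ordered across the groups like the CpG ratio, in opposite directions, and the others were not. GGGCGG holds a CpG and TATAAA only A and T, so their shares are not separate from the composition given above. GGGCGG, the core of the GC box bound by Sp1, was in 22.6% of regions missing from both lists, 47.6% of those missing from CLPP-KO only and 54.3% of those missing from WT + 2HG only, against 67.9% of weak retained regions and 78.3% of all regions in the 3 lists. TATAAA, the TATA box, was in 11.6%, 9.76% and 6.30% of the groups, 4.95% of weak retained regions and 3.78% of all regions in the 3 lists. The group shares rest on 18, 8 and 8 regions, and their intervals overlap (7.47 to 17.6, 5.03 to 18.1 and 3.23 to 11.9). CCAAT was in 43.2%, 30.5% and 36.2% of the groups, against 39.6% of weak retained regions. The E-box CACGTG was in 6.45%, 6.10% and 9.45%, against 11.2% of weak retained regions and 10.4% of all regions in the 3 lists. The AP-1 site, TGACTCA or its reverse complement, was in 4.52%, 1.22% and 5.51%, against 4.22% and 3.49%.

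Some members lay in sequence that occurs more than once in the genome. Windows in which at least 50% of the 32-mers occurred more than once in GRCm39 numbered 13 of 155 among regions missing from both lists (8.39%, 4.97 to 13.8), 0 of 82 among those missing from CLPP-KO only, which allows up to 3.66%, and 6 of 127 among those missing from WT + 2HG only (4.72%, 2.18 to 9.92). The share was 1.69% (1.01 to 2.81) in weak retained regions. Outside promoters it was 11 of 52 regions missing from both lists (21.2%, 12.2 to 34.0). At coding promoters it was 1 of 88, at Specc1, and 4 of the 101 missing from WT + 2HG only. Among those 4 were Oxct2a with 67.8% of 32-mers repeated, Irgm2, an interferon-inducible GTPase, with 59.3%, and Zfp33b with 52.2%. The values of these regions are uncertain.

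Missing regions were sometimes neighbours. Runs of at least 2 consecutive WT regions missing from a list numbered 14 for CLPP-KO, with 36 of its 237 missing regions, and 12 for WT + 2HG, with 28 of its 282. The longest, 5 regions missing from both lists, spanned 191450 bp at Cyp3a41b, Cyp3a41a and Cyp3a44 on chromosome 5 (145512271 to 145703720), a cluster of near-identical cytochrome P450 genes whose windows had 46.7% to 86.4% of 32-mers repeated. A run of 4 missing from CLPP-KO lay at Mup19 and Mup5, in the cluster of major urinary protein genes, with 6.82% to 58.8% repeated. Another run of 4 lay at Aopep, an aminopeptidase gene, on chromosome 13 (63389484 to 63427194), where no 32-mer was repeated. Its outer regions, with WT areas of 433 and 263, were missing from both lists. Its inner regions were missing from CLPP-KO only, with areas of 528 in WT and 1691 in WT + 2HG at the first and 241 and 360.0 at the second. The nearest CLPP-KO peaks lay 1072 to 38443 bp from these regions. At Emilin1, a glycoprotein of elastic fibres, a region 251 bp past the start (area 789.9) was missing from both lists and one 1900 bp past it (304) from CLPP-KO only, with an area of 1049 in WT + 2HG.

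Many members had a peak of the list that lacked them close by. A peak of the missing list lay within 2000 bp of 58 of 155 regions missing from both lists (37.4%, 30.2 to 45.3; either treated list counted), 33 of 82 missing from CLPP-KO only (40.2%, 30.3 to 51.1) and 42 of 127 missing from WT + 2HG only (33.1%, 25.5 to 41.6). Of these 133 members, 111 had such a neighbour that also overlapped a WT peak, and the median gap was 377 bp. For the other WT regions the share with a separate peak of either treated list within that distance was 25.6% (22.7 to 28.7) when weak and 14.2% over all. The median distance to the nearest peak of the missing list was 10699 bp, 5264 bp and 14003 bp for the 3 groups. At coding promoters with such a neighbour, the WT summit lay within 500 bp of the nearest coding start in 21 of 46 regions missing from both lists (45.7%), 17 of 29 missing from CLPP-KO only (58.6%) and 24 of 35 missing from WT + 2HG only (68.6%). Without a neighbour the counts were 35 of 42 (83.3%), 33 of 41 (80.5%) and 54 of 66 (81.8%). Weak retained promoter regions had 143 of 194 (73.7%) with a neighbour and 450 of 496 (90.7%) without. The share was thus lower beside a neighbour in retained regions too. Over all promoter regions in the 3 lists, with and without a neighbour together, it was 90.5%.

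**Figure D4:**
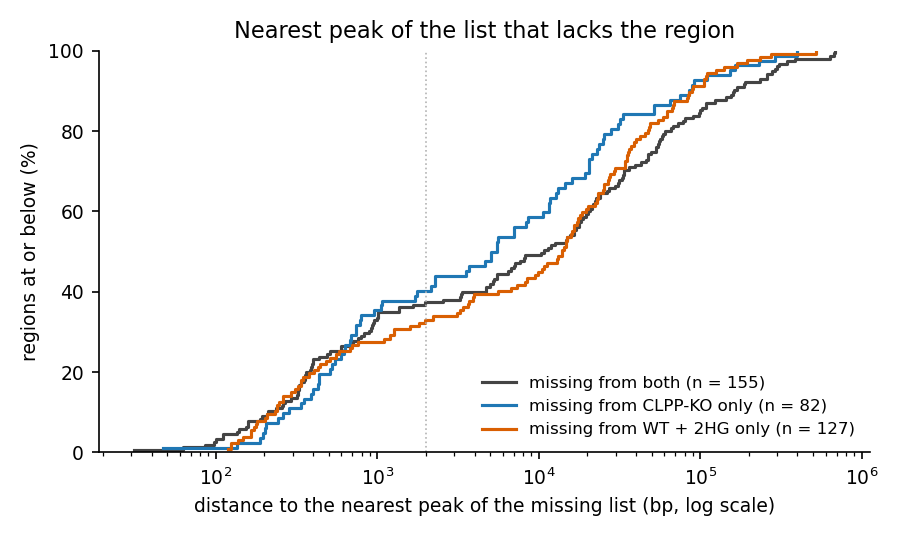
Cumulative share of members (y axis) against the distance in bp to the nearest peak of the list that lacks them (x axis, log scale), for the 3 groups, with a dotted line at 2000 bp. At the line the curves stand at 37.4% (both), 40.2% (CLPP-KO only) and 33.1% (WT + 2HG only).

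Among regions missing from both lists, the 8 of largest WT area at coding promoters were Emilin1 (789.9), Alx1 (782), Cpxm2 (768), Mrpl51 (723), Bcl9l (691), Shisal2a (671), Eif3k (634) and Sptbn1 (612). All stood between the 12.8th and 16.0th percentile of area among WT regions. Cpxm2, a carboxypeptidase-like protein, is the minus-strand gene whose promoter peak spanned chromosome 7, 131756025 to 131756442, with its summit 139 bp inside the gene and the nearest CLPP-KO peak 160892 bp away. Shisal2a, a transmembrane protein gene (chromosome 4, 108240614 to 108241012), had its summit 13 bp before the start and no peak of either list within 22378 bp. Eif3k encodes a subunit of translation initiation factor 3, and its nearest CLPP-KO peak was 18739 bp away. Sptbn1, or β-spectrin of the membrane skeleton, had peaks of CLPP-KO and WT + 2HG 67988 and 68020 bp away. The Sptbn1 gene kept a promoter peak in both lists at another start. The others had close neighbours. WT + 2HG peaks lay 339 bp from Emilin1, 317 bp from Alx1, a homeobox factor of craniofacial development, 140 bp from Mrpl51, a mitochondrial ribosomal protein, and 31 bp from Bcl9l. The 3 largest outside promoters lay 53371 bp from the start of Smim3 (728), in an intron at -5385 bp from the start of Rbm12b1 (549, 86.6% of 32-mers repeated) and in an intron of Zcchc24 (531).

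Among regions missing from CLPP-KO only, areas in the WT + 2HG list that kept them can be set beside those in WT, although the lists are not scaled to each other. Agap3, a GTPase-activating protein for Arf (chromosome 5, 24679539 to 24680208), had the largest WT area of the members, 1416 at the 25.4th percentile, and an area of 6385 at the 58.3rd percentile in WT + 2HG. The nearest CLPP-KO peak lay 20355 bp away, but the Agap3 gene kept a CLPP-KO promoter peak at another start. Smdt1, the EMRE subunit of the mitochondrial calcium uniporter (chromosome 15, 82225074 to 82225762), had 679.7 and 5267, the 14.0th and 50.9th percentiles, with its summit 4 bp before the start. Its region also touches the promoter of Pheta2, and a CLPP-KO peak lay 1773 bp away. Fxyd6, a regulator of the sodium pump, had 688 and 1958, with no CLPP-KO peak within 231105 bp. Kif20a, a mitotic kinesin that shares the region with Brd8, had 664 and 1044. These regions ranked higher in WT + 2HG than in WT, as weak retained regions also did by their medians (5.50 in WT and 22.2 in WT + 2HG).

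The remaining coding-promoter regions named in that group had summits 1045 to 2038 bp from the nearest coding start. A region counts as a coding promoter where any part of it touches the window, as at Bmp2. Tgfb3, a ligand of the transforming growth factor-β family, had 1169.8 in WT and 772 in WT + 2HG at a summit 1216 bp past its start, and the CLPP-KO list had a peak 784 bp away. Bmp2, a bone morphogenetic protein, had 883 and 1596 at 2038 bp past the start nearest to its summit, with a CLPP-KO peak 618 bp away. Smad6, an inhibitory SMAD that dampens BMP signalling, had 637 and 1149 at 1045 bp before its start, with a CLPP-KO peak 282 bp away. Rnase4, a secreted ribonuclease gene that shares this promoter with Ang, had 759.99 and 771, with a CLPP-KO peak 1715 bp away. Outside promoters the largest were in introns near Ajuba, a LIM-domain scaffold (801 and 1202), Sim2, a basic helix-loop-helix factor (723 and 1322), and Arhgef17 (516 and 1056), with CLPP-KO peaks 434, 5041 and 47 bp away.

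Among regions missing from WT + 2HG only, the kept area is that of the CLPP-KO list. Glmp, a lysosomal membrane glycoprotein (chromosome 3, 88232364 to 88233393), had 1050.3 in WT and 1276 in CLPP-KO, at the 20.2nd and 20.4th percentiles, and no WT + 2HG peak within 9533 bp. Exosc5, a subunit of the RNA exosome (chromosome 7, 25358528 to 25358960), had 1036 and 268, the 20.1st and 3.75th percentiles. Its region is also the promoter of Bckdha, the E1α subunit of the branched-chain ketoacid dehydrogenase, and the nearest WT + 2HG peak lay 27086 bp away. Slc18a3, the vesicular acetylcholine transporter that lies within the Chat locus, had 987 and 976. Ticam2, an adaptor of Toll-like receptor 4, had 901 and 974. Mast1, a microtubule-associated kinase, had 868 and 3175, the 17.4th and 33.6th percentiles. The Mast1 gene kept a WT + 2HG promoter peak at another start. Traip, a ubiquitin ligase of the replication fork, had 831 and 638. Exosc5 and Traip ranked lower in CLPP-KO than in WT, and Mast1 ranked higher.

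Dio3, the deiodinase that inactivates thyroid hormone, had 923 in WT and 506 in CLPP-KO at a summit 16 bp before the start of its noncoding neighbour Dio3os, with a WT + 2HG peak 482 bp away. Hspa9, the mitochondrial Hsp70 chaperone, had 881 and 861 at 125 bp before its start, with a WT + 2HG peak 260 bp away, so its promoter kept a peak. The largest area of this group, 1060.2, was not at a coding promoter but 5 bp before the start of the noncoding gene 4930456A14Rik, with 779 in CLPP-KO. Outside promoters the largest were in an intron of Actr3b (619.8 and 1009), an exon of Dbx1, a homeobox factor of the neural tube (557 and 458), and an intron of Clstn1 (505 and 328, 51.6% of 32-mers repeated). A region in an intron of Hoxb3, a homeobox gene of the anterior Hox cluster, had the highest rank in CLPP-KO of the group, with 283 in WT and 10243, at the 73.1st percentile, in CLPP-KO. It was chosen after its values were seen.

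Rank in the list that kept a region was low in both single-list groups. Regions missing from CLPP-KO only had a median percentile of 5.73 in WT and 12.4 (quartiles 6.67 to 18.02, range 0.402 to 58.3) in WT + 2HG. Regions missing from WT + 2HG only had 6.49 in WT and 10.6 (6.16 to 17.2, range 0.0692 to 73.1) in CLPP-KO. Percentiles were taken among WT regions for WT, and within each treated list for the others.

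**Figure D5:**
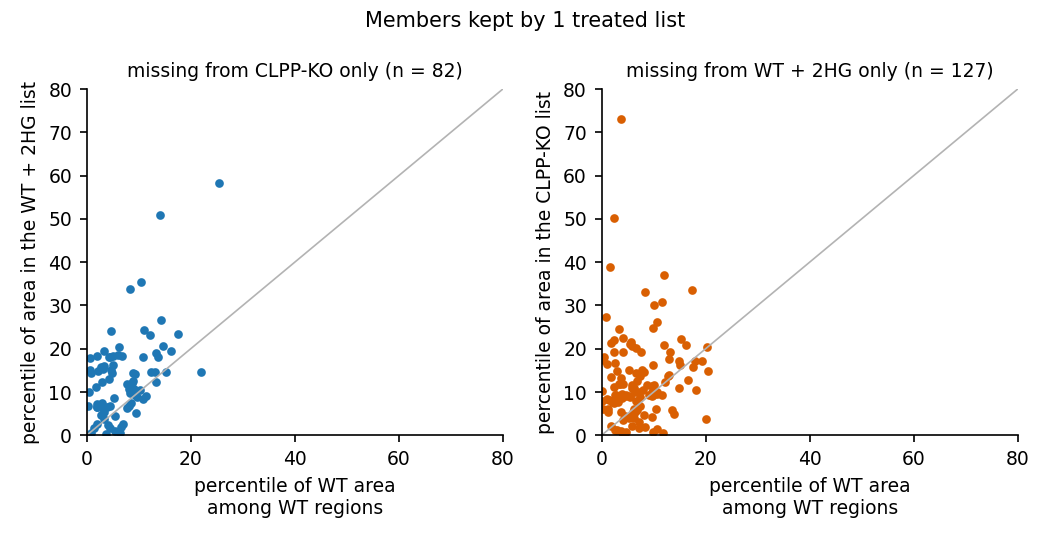
Percentile of WT area among WT regions (x axis) against the percentile of area in the list that kept the region (y axis), 1 point a region. Left are 82 regions missing from CLPP-KO only with their WT + 2HG percentile, right 127 missing from WT + 2HG only with their CLPP-KO percentile, and on the line both are equal; most points lie in the lower left corner of each panel.

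A region missing from a list did not always leave a gene without a mark. Of 10916 coding genes with a WT promoter peak, 133 had no promoter peak at all in CLPP-KO, WT + 2HG or both, which is a background of 1.22% (1.03 to 1.44). They comprised 37 genes with none in both, 34 with none in CLPP-KO only and 62 with none in WT + 2HG only, and they rested on 119 WT peaks, since divergent or nested genes share a peak. Among the genes with a member region at their promoter, another promoter peak was kept by 70 of 105 for regions missing from both lists (66.7%), 55 of 89 for those missing from CLPP-KO only (61.8%) and 56 of 115 for those missing from WT + 2HG only (48.7%). For Jmjd8 and Pspn, 2 of the 37 genes, the WT peak belongs to a region of all 3 lists (areas 4262 and 2037), and only the treated peaks stop short of the promoter window.

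Apart from Jmjd8 and Pspn, the genes without a peak in both treated lists were led in WT area by Cpxm2, Shisal2a and Eif3k, followed by Glrx, a glutaredoxin that reduces mixed disulphides of glutathione (507). Hax1, an antiapoptotic protein of mitochondria, and Mrpl16 of the mitochondrial ribosome were also in this group. In the group with none in CLPP-KO only, Fxyd6 and the pair Kif20a and Brd8 were followed by Rem2, a small GTPase that regulates calcium channels (636), and the pair Rnf208 and Cysrt1 (628). It also held Cmklr1, the receptor of the adipokine chemerin, Tnfrsf11b or osteoprotegerin, and Col11a1. In the group with none in WT + 2HG only, Glmp, the pair Exosc5 and Bckdha and the pair Slc18a3 and Chat came first. Bckdha was accompanied there by Slc25a44, the mitochondrial carrier of branched-chain amino acids, and Ppm1k, the phosphatase that activates the dehydrogenase. These 3 were grouped after the list was seen, and no list of that pathway was counted.

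The gene lists counted next cover 1110 coding genes with a WT promoter peak, of which 17 had none left in a treated list. In 16 of the 23 lists the count was 0, which allows a share of up to 2.83% in the longest of them and up to 60% in the shortest. They include thermogenic genes (0 of 8), adipogenic transcription factors (0 of 24), fatty acid oxidation (0 of 23), genes of the integrated stress response (0 of 26), enzymes of 2HG and one-carbon metabolism (0 of 13), and chromatin dioxygenases with H3K4 methyltransferases (0 of 30). They also include mitochondrial proteases and chaperones (0 of 20), lipid droplet, uptake and adipokine genes (0 of 12), interferon-stimulated and nucleic acid sensing genes (0 of 13), actin and contraction genes (0 of 16), and developmental homeobox, forkhead, Sox, T-box and Gata factors (0 of 90). The remaining lists at 0 were small GTPase regulators (0 of 106), potassium channels (0 of 28), replication-dependent histones (0 of 20), chemokines and interleukins (0 of 10) and markers of preadipocytes and other cell types (0 of 5). Several of these genes had a member region while keeping a promoter peak, among them Hilpda of the lipid lists, Ash2l, a core subunit of the H3K4 methyltransferases, Hspa9, Dlx3, Gata6, Hoxa3, Sox6 and Arhgef40. The count of 0 for interferon-stimulated genes holds for the genes on that list only. Genes outside the lists, named after the values were seen, include Xaf1, Apobec3, Irgm1 and Trim56, with no peak left in WT + 2HG only. Ube2l6, also outside the lists, had none left in CLPP-KO only.

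The other 7 lists had 1 to 5 genes without a peak. Of 70 oxidative phosphorylation subunits these were Cox6b1 of complex IV and Ndufa9 of complex I, both in WT + 2HG only. Of 70 mitochondrial ribosomal proteins they were Mrpl16 (both) and Mrpl30 (CLPP-KO only), while Mrpl51 and Mrps12 had a member region and kept a peak. Of 15 collagens they were Col11a1 (CLPP-KO only) and Col14a1 (WT + 2HG only), a share of 13.3% from 2 genes. Of 30 genes of fatty acid and cholesterol synthesis it was Pmvk, phosphomevalonate kinase (WT + 2HG only), while Dhcr7 and Scd2 kept a peak. Of 85 cytosolic ribosomal proteins it was the L7-like gene Rpl7l1, while Rpl3 and Rps12 kept a peak. Of 245 zinc finger genes named Zfp there were 4, Zfp146, Zfp180, Zfp33b and Zfp952, and Zfp800 kept a peak. Of 167 solute carriers there were 5, Slc18a3, Slc25a44, Slc38a7, Slc49a3 and Slc8a2, and Slc4a2 kept a peak. No list was called apart from the background on counts of this size.

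Few members had a strong WT summit. A summit p of at most 1e-05 in WT was found in 29 of the 364, namely 4 missing from both lists, 8 missing from CLPP-KO only and 17 missing from WT + 2HG only. The 4 were Cpxm2, Shisal2a, Sptbn1 and a region nearest to Or1o11, an olfactory receptor gene, with 94.0% of 32-mers repeated. The 8 were Agap3, Tgfb3, Bmp2, Fxyd6, Rem2, Cysrt1, Tcfl5 and Zfp180. Of the 29 regions, 22 were at coding promoters, 22 were island-like and 25 had no peak of the missing list within 2000 bp.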

How the data were processed

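H3K4me3 ChIP–seq of 12 samples was processed by the authors with fastp 0.23.4, BWA 0.7.17 and Genrich 0.6.1 (deepTools 3.5.4 is also named in the submitters' notes), on GRCm39. They called peaks on the 4 samples of a condition together. Every peak in the deposited lists carries a signal value, the area under the significance curve, and a −log10 p-value at its summit. The q field holds no values. Neither column is scaled between lists, so both served to describe and rank within a list. Where areas or ranks of a region in different lists stand side by side, they do not measure a change in H3K4me3. No value is given per sample, so no test between conditions and no p-value was possible.

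Overlapping peaks were merged into regions on chromosomes 1 to 19. Each region was described by the GENCODE vM39 annotation (78289 genes, 20621 coding on these chromosomes), with promoters within 2000 bp of a start, by GRCm39 sequence in 500 bp at the WT summit, and by repeated 32-mers. Sequences were printed from chromosomes other than 18. Some items are not reported here. Names followed a rule: per group, the 8 coding-promoter and 3 other regions of largest WT area, genes of 23 lists, Clpp and cell type markers. The members and lists were chosen with earlier results of these data known. Alternatives changed the overlap, promoter window, summit p, list sizes, gene assignment and chromosomes. Simulated regions were used to check the code (4 of 4 planted combinations recovered among 2260), and overlaps were checked against bedtools 2.31.1. The work used pysam 0.24.0, pandas 2.3.3, scipy 1.17.1, numpy 2.4.6 and matplotlib 3.10.9 under Python 3.11.15.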

Additional observations from a re-analysis of the deposited data

How the results depend on the processing

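Of 72 alternative values, 49 stayed within 1.5 times the main count or within its interval, and 23 moved. The counts of regions missing from both lists, from CLPP-KO only and from WT + 2HG only became 100, 51 and 93 when peaks within 1000 bp were joined, 14, 40 and 49 when summits in every list were limited to p of 1e-05 or below, and 4, 8 and 17 with that limit in WT alone. With every list reduced to its 11988 peaks of largest area they became 443, 275 and 136, so the order of the single-list groups depends on list size. By construction, shorter treated lists lack more regions.

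The coding-promoter share of regions missing from both lists was 48.4% with a 1000 bp window, 75% with the limit on WT summits and 42.0% with joined peaks. It was 74.4% with the 1000 bp window and 100% with the limit on WT summits in regions missing from CLPP-KO only, and 64.7% with that limit in those missing from WT + 2HG only. The share outside promoters was 25% with that limit and 45.0% with joined peaks (both), 19.5% with the 1000 bp window and 0% with the limit (CLPP-KO only), and 17.6% with the limit (WT + 2HG only), over the small counts above. Genes without a promoter peak numbered 176 (both) and 180 (CLPP-KO only) with equal-sized lists. The shares with a near peak stayed within their intervals at 1000 and 5000 bp. The medians of GC and CpG did so in the 1 alternative run for them, which used the whole WT peak. The limit on WT summits was not applied to those medians. Of the 29 members that pass it, 22 were island-like, against 116 of all 364 (31.9%), so the low CpG content does not describe the members with strong summits. The causes of these shifts were otherwise not tested.

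No paired analysis was possible because each condition has 1 list made from its 4 samples together. For the same reason leaving out a sample was not run.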

Other observations

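Members were spread over all 19 autosomes counted, from 1.44% of WT regions on chromosome 12 to 5.36% on chromosome 13. On sequences outside the rule, the X chromosome had 262 WT regions, of which 4 were missing from both lists, 2 from CLPP-KO only and 4 from WT + 2HG only. The Y chromosome had 1 WT region and none missing. Unplaced contigs had 69 WT regions, of which 35 were missing from both lists, 0 from CLPP-KO only and 31 from WT + 2HG only. The calling command in the study's reporting summary excludes X, Y and contigs by name, yet the lists hold peaks on such sequences. How the lists were made there is thus unclear, and its effect on these counts was not tested.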
